A study of Mus musculus with 6 samples.

Results

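The bone morphogenetic protein (BMP) pathway was followed through 10 genes during endoderm differentiation of mouse embryonic stem cells (ESCs). They are the ligands Bmp2, Bmp4 and Bmp7, the secreted antagonists Chrd, Nog and Fst, and the target genes Smad6, Id1, Id2 and Id3. They were picked by name from the 24054 genes of the deposited expression tables, with earlier results of these data known. All 10 passed the filter on low counts. RNA-seq was done on 6 samples, 2 replicates each of 3 populations, all from the DKI ESC line, which carries Foxa2-Venus (heterozygous) and Sox17-Cherry (homozygous) gene fusions. The d0 population was collected on day 0 and sorted as negative for both reporters. The d3F cells were collected on day 3 as Foxa2-Venus positive and Sox17-Cherry negative mesendoderm, and the d5FS cells on day 5 as endoderm positive for both. Differentiation was in endoderm medium with Wnt3a and Activin A added daily, whereas the ESCs were kept in medium with serum and LIF. Medium, day and sorting gate therefore changed together and cannot be told apart, and all samples come from 1 cell line.

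BMPs are secreted dimers of the TGF-beta family that bind pairs of type I and type II serine/threonine kinase receptors. The activated receptors phosphorylate Smad1 and Smad5, which enter the nucleus with Smad4 and switch on target genes, among them the Id genes and the inhibitory Smad6. In the gastrulating embryo Bmp4 from extraembryonic cells helps to form the primitive streak and posterior mesoderm, and the organizer and its derivatives secrete chordin and noggin, which hold BMPs away from their receptors. Follistatin, the product of Fst, binds activins tightly and some BMPs as well.

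Of the 10 genes, 5 were matched to a RefSeq promoter on GRCm38.p6 (Id3, Smad6, Id2, Bmp4 and Chrd). Their 250 bases before the RefSeq start are shown on the strand of the gene because Smad proteins act at such sequences, and they span both the target genes and the genes that make and block the signal. Capitals mark GGCGCC, a GC-rich element that Smad1 and Smad5 can bind, and GTCT or its complement AGAC, the Smad box. The Id3 window is chr4:136143572-136143821 on the plus strand, and the Smad6 window is chr9:64022060-64022309 on the minus strand. The Id2 window is chr12:25096093-25096342 on the minus strand. Those of Id3 and Id2 lie inside the gene spans given below, which come from another annotation (GENCODE) with starts further upstream. Distances for these 2 genes hold for the RefSeq start only. The Bmp4 window is chr14:46390670-46390919 on the minus strand, and that of Chrd is chr16:20732877-20733126 on the plus strand.
Id3: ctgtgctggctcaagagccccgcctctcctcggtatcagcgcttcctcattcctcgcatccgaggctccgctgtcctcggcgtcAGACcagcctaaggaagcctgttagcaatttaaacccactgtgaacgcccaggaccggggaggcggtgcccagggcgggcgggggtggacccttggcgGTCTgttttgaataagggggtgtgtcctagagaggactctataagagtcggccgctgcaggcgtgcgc
Smad6: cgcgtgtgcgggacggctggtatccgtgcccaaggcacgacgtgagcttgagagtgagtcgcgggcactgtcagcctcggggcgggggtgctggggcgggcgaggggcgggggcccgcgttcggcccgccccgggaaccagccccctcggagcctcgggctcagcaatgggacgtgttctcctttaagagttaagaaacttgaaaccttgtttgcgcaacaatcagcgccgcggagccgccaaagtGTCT
Id2: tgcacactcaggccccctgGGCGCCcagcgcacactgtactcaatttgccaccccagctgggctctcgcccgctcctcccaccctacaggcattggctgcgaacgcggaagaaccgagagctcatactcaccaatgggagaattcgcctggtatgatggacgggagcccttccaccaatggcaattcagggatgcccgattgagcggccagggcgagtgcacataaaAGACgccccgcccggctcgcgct
Bmp4: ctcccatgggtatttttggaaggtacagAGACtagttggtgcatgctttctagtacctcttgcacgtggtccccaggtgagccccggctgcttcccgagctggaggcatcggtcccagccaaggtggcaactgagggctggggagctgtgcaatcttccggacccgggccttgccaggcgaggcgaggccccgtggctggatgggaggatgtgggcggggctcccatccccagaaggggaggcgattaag
Chrd: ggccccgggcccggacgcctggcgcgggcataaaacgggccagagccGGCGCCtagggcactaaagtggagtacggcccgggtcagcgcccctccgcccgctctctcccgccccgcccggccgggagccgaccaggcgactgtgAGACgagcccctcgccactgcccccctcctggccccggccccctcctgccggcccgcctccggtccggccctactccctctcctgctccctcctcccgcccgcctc

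Each of these 5 windows held at least 1 Smad box, as did 82.9% of the 32851 RefSeq promoter windows of that length. GGCGCC, found in 9.59% of all windows, occurred in those of Id2, 231 bases before the start, and Chrd, 203 bases before it. The Smad box of Smad6 lay directly before the start, at 4 bases, and those of Id3 at 166 and 68 bases. GGCGCC followed after 5 bases by GTCT, an arrangement known from BMP response elements, was in 23 of all windows (0.07%) and in none of these 5. These matches describe letters in a short window and do not show that a factor binds there.

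Levels were compared as CPM, the expected count of a gene per 1000000 expected counts of its library. The library totals ran from 16457728.93 to 22768686.01. Each difference was tested with edgeR's quasi-likelihood test across 14539 genes, with the adjustment of Benjamini and Hochberg. A call needed an adjusted p below 0.05 together with a log2 fold change beyond 1 in either direction. A second fit held the replicate number as a block, since same-numbered libraries deviated together. It is given where it changed a call. With 2 samples against 2, an exact permutation test of a single gene cannot go below p = 0.333, so none was used. The transcripts of the 2 reporter genes were checked against the gates. Foxa2 was between 0.0452 and 0.27 CPM in d0 and between 39.3 and 77.0 CPM in d3F and d5FS, and Sox17 was at most 0.769 CPM in d0 and at 58.2 and 102 CPM in d5FS. In d3F, which was gated as Sox17-Cherry negative, Sox17 was at 5.14 and 13.9 CPM, above d0 and below d5FS. Summed levels of 6 pluripotency markers were between 1305 and 2409 CPM in d0. In d3F they were between 438.2 and 936.3 CPM, and in d5FS between 100.8 and 129.5 CPM. Of these markers, Pou5f1 was at 751 and 352 CPM in the d3F replicates. Replicate 1 of d3F was thus higher in Pou5f1 and lower in Sox17 than replicate 2. The part of this in other differences between the d3F replicates was not tested. In bulk RNA a smaller number of expressing cells and less RNA per cell cannot be told apart, and this holds for every level below.

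From d0 to d3F, 3 of the 10 genes were called, Bmp2, Chrd and Nog, and all 3 rose. Of all 14539 genes tested, 4.7% were called in this comparison, 2.8% as higher and 1.9% as lower. From d3F to d5FS only Chrd was called among the 10, and it fell, where 1.54% of all genes were called, 1.08% as higher and 0.461% as lower. From d0 to d5FS, 4 rose (Bmp2, Chrd, Nog and Smad6) and none of the 10 was called as lower, against 22.8% of all genes called, 12.4% as higher and 10.4% as lower. For the 10 genes the median log2 fold change was 1.79, -0.22 and 1.18 in the 3 comparisons, and for all genes tested it was -0.01, 0.01 and 0.02. With the replicate block 6, 2 and 6 of the 10 genes were called, where 9.08%, 6.31% and 29.5% of all genes were. The comparisons share samples, so that they are not independent of each other. The 10 genes and the pathway lists below were chosen with earlier results of these data known. The shares and medians over all genes are therefore background and not a test of the chosen genes.

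**Figure D1:**
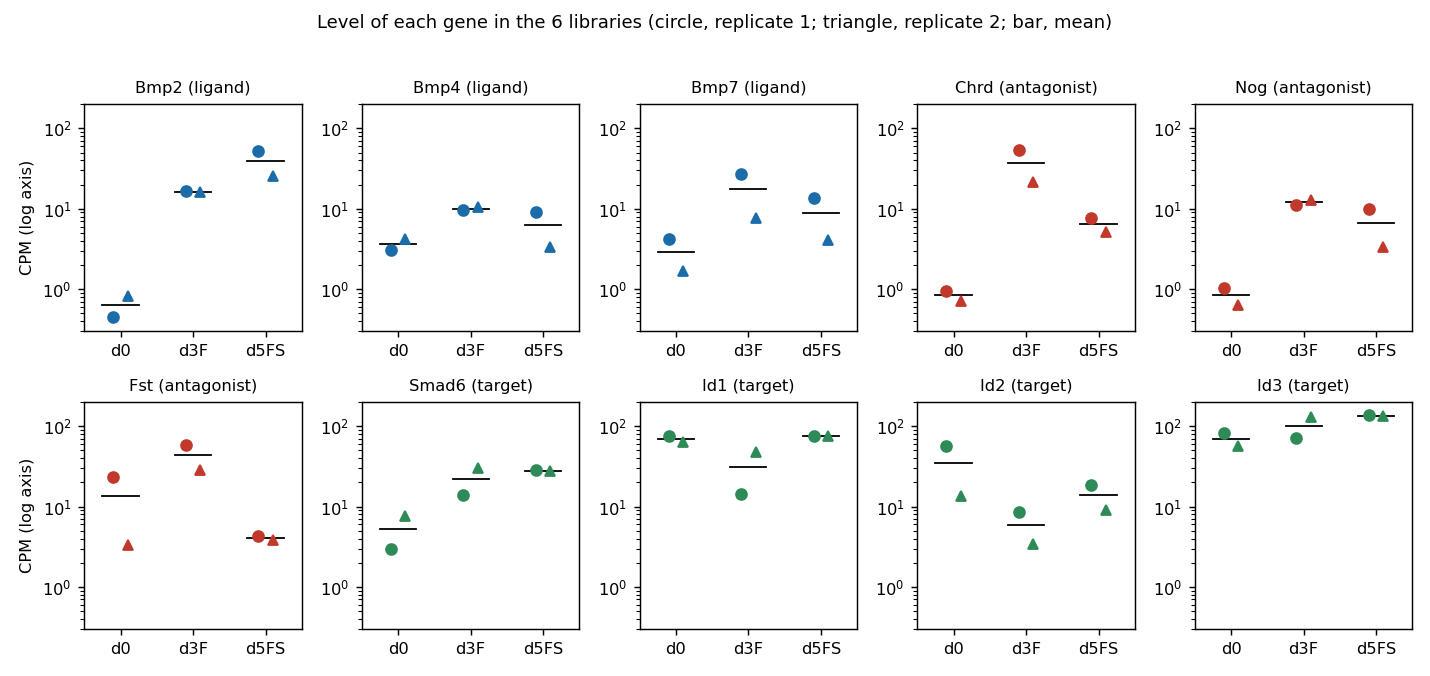
CPM on a log axis in each of the 6 libraries for the 10 genes, with circles for replicate 1, triangles for replicate 2 and bars at the mean of the 2. Bmp2 is higher in each later population, Chrd and Nog are highest in d3F, and Id1 and Id2 are lowest in d3F.

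Among the 3 ligands, Bmp2 had the largest difference between ESCs and endoderm. Bmp2 (chr2:133552159-133562885, plus strand, mm10) gave 0.452 and 0.809 CPM in the d0 replicates, from 10 and 18 counts. It reached 16.4 and 16.2 CPM in d3F and 52.2 and 25.9 CPM in d5FS. The populations did not overlap and were ordered d0, d3F, d5FS. Bmp2 rose 23.6-fold from d0 to d3F (log2 fold change 4.56 ± 0.52 SE, edgeR adjusted p = 0.00786) and was 55.1-fold higher in d5FS than in d0 (5.78 ± 0.54, edgeR adjusted p = 0.00144). Both calls were kept under all 13 alternative settings and leave-outs, with log2 fold changes from 4.11 to 5.19 and from 5.25 to 6.41. The highest of each came without replicate 2 of d0. The step from d3F to d5FS, 2.33-fold (1.22 ± 0.42), did not pass the test (edgeR adjusted p = 0.183), and the replicates of d5FS differed 2.02-fold.

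Visceral endoderm of the embryo is a known source of Bmp2, so its markers are given beside that gene. The summed level of 6 visceral endoderm markers (Afp, Ttr, Apoa1, Amn, Rhox5 and Sox7) was between 28.9 and 69.0 CPM in d0, 16.2 and 17.9 CPM in d3F and 71.2 and 135 CPM in d5FS, with none of the 6 at 0 in both replicates of a population. Ttr, a thyroxine carrier made by visceral endoderm and liver, was at 11.5 and 20.1 CPM in d5FS and at most 0.629 CPM in the other 4 libraries. In d0 and d3F the sum came almost wholly from Rhox5, at 26.2 and 66.0 CPM in d0 and 17.2 and 13.4 CPM in d3F. Rhox5 was not higher in d5FS than in d0, at 23.3 and 36.1 CPM. Afp was at 6.56 and 25.1 CPM in d5FS and at most 0.136 CPM elsewhere. Amn was at 1.63 and 2.20 CPM in d0 and 2.31 and 5.01 CPM in d5FS. Sox7 stayed low, at 1.94 and 1.03 CPM in d5FS and at most 0.919 CPM elsewhere. Apoa1 was at 25.6 and 47.3 CPM in d5FS and at most 0.822 CPM elsewhere. The part of such cells in the levels of Bmp2 was not tested.

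The other ligands were present in ESCs and none of their differences passed the unblocked test. Bmp4 (chr14:46383520-46390669, minus strand), the classical BMP of the posterior streak, was at 3.08 and 4.22 CPM in d0, 9.53 and 10.5 CPM in d3F, and 9.18 and 3.30 CPM in d5FS. The d3F values lay above both others, and the d5FS and d0 ranges overlapped. The log2 fold change of Bmp4 was 1.35 ± 0.53 from d0 to d3F (edgeR adjusted p = 0.195) and 0.61 ± 0.53 from d0 to d5FS (edgeR adjusted p = 0.432). Without replicate 1 of d5FS, the latter difference was -0.23. Exons of Bmp4 overlap Gm15217 on the other strand, which the library kit does not separate, and Gm15217 itself had 2 counts in 1 library and 0 in the rest. Such counts cannot show which of the genes the reads of shared exons came from.

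Bmp7 (chr2:172868012-172940321, minus strand), which can pair with Bmp2 or Bmp4 in a heterodimer, was at 4.16 and 1.66 CPM in d0. It was at 27.3 and 7.74 CPM in d3F and at 13.6 and 4.10 CPM in d5FS. Replicate 1 was the higher one in each population, by 2.5-, 3.53- and 3.3-fold. Bmp7 was 5.60-fold higher in d3F than in d0 (log2 fold change 2.49 ± 0.73, edgeR adjusted p = 0.0949), and 2.82-fold higher in d5FS (1.49 ± 0.72, edgeR adjusted p = 0.162). Without replicate 1 of d3F the former difference was 1.45, without replicate 1 of d5FS the latter was 0.47, and without replicate 1 of d0 they were 3.14 and 2.13, all on the log2 scale and without a call. Without replicate 2 of d3F and of d5FS they were 3.09 and 2.10. With the replicate block both differences passed, at 2.38 (edgeR adjusted p = 0.0121) and 1.40 (edgeR adjusted p = 0.0164). From d3F to d5FS none of the 3 ligands was called by edgeR, 1 had an unadjusted p under 0.05, and DESeq2 called 0. The DESeq2 Wald test called 1064 of 21376 genes at this step, and unadjusted p-values were not counted over all genes.

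Markers of posterior and lateral mesoderm, the embryonic site of Bmp4 action, are given beside these ligands. The summed level of 6 such markers was between 2.25 and 3.30 CPM in d0, 27.9 and 42.4 CPM in d3F and 11.3 and 32.4 CPM in d5FS. In d3F and d5FS most of it came from Pdgfra, at 22.7 and 30.1 CPM in d3F and 28.9 and 8.66 CPM in d5FS. Kdr, at 2.24 and 7.25 CPM in d3F, and Mesp1, at 1.32 and 3.14 CPM, were also highest there. Tbx6, Hand1 and Foxf1 were at most 1.52 CPM in any library, and Tbx6 was highest in d5FS replicate 1. The rise of the sum in d3F is thus largely that of Pdgfra. The part of mesoderm cells in the ligand levels was not tested.

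Among the antagonists, Chrd and Nog rose from d0 to d3F, and Chrd then fell. Chrd (chr16:20733127-20742384, plus strand) encodes chordin and was at 0.95 and 0.719 CPM in d0, 53.4 and 21.4 CPM in d3F, and 7.66 and 5.18 CPM in d5FS. The 3 populations did not overlap, and d5FS lay between the other ones. Chrd rose 40.9-fold from d0 to d3F (log2 fold change 5.35 ± 0.53, edgeR adjusted p = 0.00474), the largest change among the 10 genes at that step. It fell by 2.54 ± 0.45 on the log2 scale from d3F to d5FS (edgeR adjusted p = 0.0405) and stayed 7.05-fold above d0 (2.82 ± 0.50, edgeR adjusted p = 0.00764). Both rises from d0 were called under all 13 alternatives, the first at 4.68 without replicate 1 of d3F.

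The fall of Chrd from d3F to d5FS kept its direction in all 13 refits, between -3.0 and -1.87, while its call did not hold in all. The adjusted p was 0.324 without replicate 1 of d3F, 0.165 without replicate 1 of d5FS and 0.181 without replicate 2 of d5FS in edgeR, with log2 fold changes of -1.87, -2.79 and -2.33. In these leave-outs 0, 17 and 22 of all genes were called, the 0 beside 1206 genes with an unadjusted p under 0.05. When DESeq2 tested against a threshold of 1 on the log2 scale, the adjusted p was 0.109. Exons of Chrd overlap Thpo on the other strand, and the library kit did not mark strand. Thpo was counted at 1.71 and 0.679 CPM in d3F and at 0.315 to 0.365 CPM in the other 4 libraries, well below Chrd in d3F. Without strand, these estimates cannot show which of the genes the reads of shared exons came from.

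Nog (chr11:89300638-89302332, minus strand) encodes noggin. It was at 1.04 and 0.629 CPM in d0, 11.1 and 13.0 CPM in d3F, and 9.78 and 3.36 CPM in d5FS. All 4 libraries of d3F and d5FS lay above both d0 libraries. Nog rose 13.6-fold from d0 to d3F (log2 fold change 3.77 ± 0.60, edgeR adjusted p = 0.0151) and 7.18-fold from d0 to d5FS (2.84 ± 0.58, edgeR adjusted p = 0.0128). The first call was lost without replicate 2 of d0 (edgeR adjusted p = 0.0572) or replicate 2 of d3F (0.0773), and the other was lost without replicate 1 of d5FS (log2 fold change 1.95, adjusted p = 0.0774). The difference of -0.92 ± 0.52 from d3F to d5FS did not pass (edgeR adjusted p = 0.397).

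Exons of Fst (chr13:114452290-114458951, minus strand) overlap Gm47040, an antisense gene on the other strand. The library kit did not mark strand, and Gm47040 has no entry among the deposited genes. Its part in the counts of Fst could therefore not be checked. Fst, whose product also binds the Activin that was added to the medium, was at 23.4 and 3.37 CPM in d0. These replicates differed 6.94-fold, the largest replicate difference of the 10 genes. Fst was at 58.3 and 28.2 CPM in d3F and at 4.31 and 3.82 CPM in d5FS, so that both d3F values lay above all others. From d3F to d5FS the log2 fold change was -3.40 ± 0.76, which missed the test (edgeR adjusted p = 0.0714) and passed it with the replicate block (-3.29, edgeR adjusted p = 0.0270) or without either d0 replicate (edgeR adjusted p = 0.00572 and 0.00616). From d0 to d5FS it was -1.75 ± 0.72 (edgeR adjusted p = 0.110). It was 0.02 without replicate 1 of d0 and -2.52, which passed, without replicate 2 of d0 (edgeR adjusted p = 0.0121). The difference from d0 to d3F was 1.65 ± 0.70 (edgeR adjusted p = 0.23), 3.44 without replicate 1 of d0 (edgeR adjusted p = 0.0113) and 0.89 without replicate 2 of d0.

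**Figure D2:**
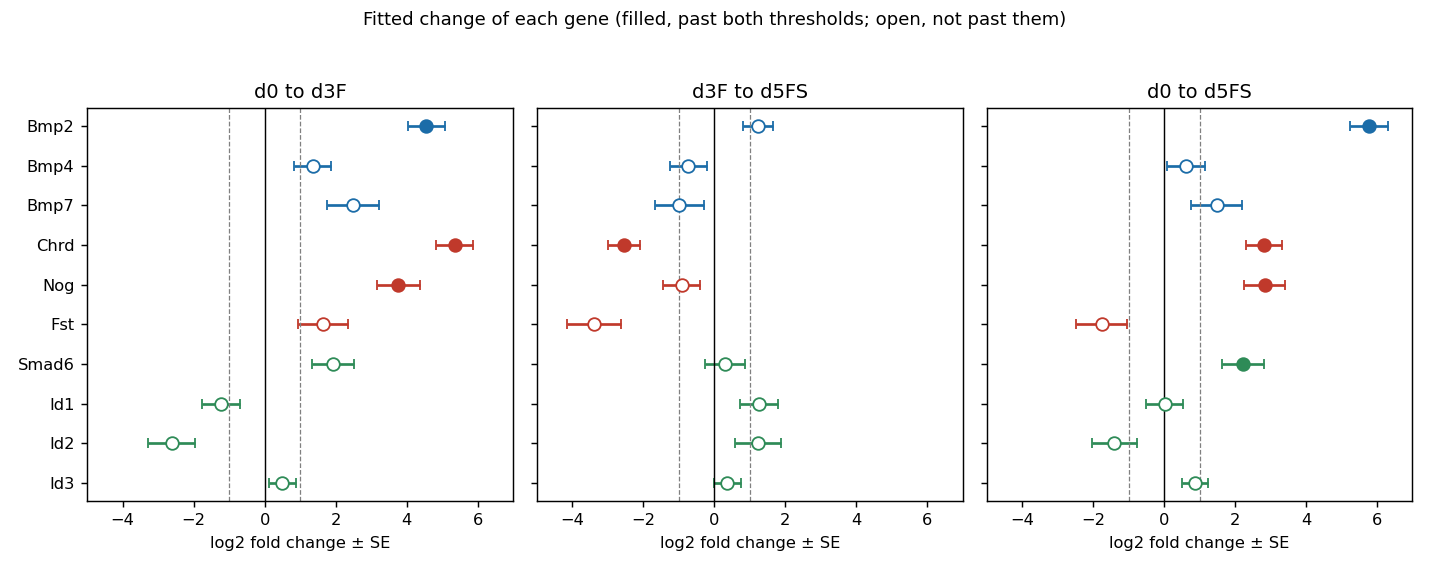
Fitted log2 fold change with its standard error for the 10 genes in the 3 comparisons, with filled points for genes past both thresholds and dashed lines at a log2 fold change of 1 in either direction. From d0 to d3F only Bmp2, Chrd and Nog are filled, from d3F to d5FS only Chrd, at -2.54, and Id1 and Id2 point down at the first step and up at the second without being called.

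Of the 4 target genes, only Smad6 was called in any comparison, from d0 to d5FS. At the first step none of the 4 was called by edgeR, while 3 had an unadjusted p under 0.05 and DESeq2 called 2. From d3F to d5FS edgeR again called 0 of the 4, 1 had an unadjusted p under 0.05 and DESeq2 called 0. Of 21376 genes, the DESeq2 Wald test called 1458 at the first step and 1064 from d3F to d5FS. Unadjusted p-values of this fit were not counted over all genes, so these counts are no result about the targets.

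Smad6 (chr9:63953076-64022059, minus strand), which encodes an inhibitory Smad that damps BMP receptor signalling, was at 2.99 and 7.64 CPM in d0. It was at 13.8 and 30.1 CPM in d3F and at 28.3 and 27.6 CPM in d5FS, where the replicates were within 1.03-fold. All 4 later libraries lay above d0. Smad6 rose 4.68-fold from d0 to d5FS (log2 fold change 2.23 ± 0.60, edgeR adjusted p = 0.0309). Between d0 and d3F the difference of 1.93 ± 0.59 missed the test (edgeR adjusted p = 0.105) and passed with the replicate block (1.96, edgeR adjusted p = 0.0312). It was 1.34 and 2.94 without replicate 1 and replicate 2 of d0, and 1.15 without replicate 2 of d3F, with no call. The d5FS call was kept without replicate 2 of d0, at 3.23. It was lost without replicate 1 of d0 (1.62, edgeR adjusted p = 0.0774), replicate 1 of d5FS (0.103) or replicate 2 of d5FS (0.0912), and when DESeq2 tested against a threshold of 1 on the log2 scale (0.307).

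The Id genes encode helix-loop-helix proteins without a DNA-binding region, which pair with E proteins and keep them from DNA. Id1 (chr2:152736251-152737410, plus strand) was at 75.5 and 63.6 CPM in d0, 14.3 and 47.1 CPM in d3F, and 76.4 and 76.1 CPM in d5FS. Both d3F libraries were below the other 4, with a 3.30-fold difference between them, and d5FS was close to d0. The log2 fold change of Id1 was -1.23 ± 0.53 from d0 to d3F (edgeR adjusted p = 0.234) and 1.25 ± 0.53 from d3F to d5FS (edgeR adjusted p = 0.261). These sizes turned on the d3F replicates, at -0.56 and 0.57 without replicate 1 of d3F and at -2.45 and 2.48 without replicate 2, none of them called. From d0 to d5FS it was 0.02 ± 0.52 (edgeR adjusted p = 0.981), and -0.01 with the size factors of DESeq2.

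Id2 (chr12:25093799-25097140, minus strand) was at 56.1 and 13.5 CPM in d0, 8.43 and 3.39 CPM in d3F, and 18.7 and 9.0 CPM in d5FS. The d3F values were the lowest, and replicate 1 exceeded replicate 2 in each population, by 4.15-, 2.49- and 2.07-fold. Between d0 and d3F the log2 fold change was -2.62 ± 0.67 (edgeR adjusted p = 0.0638), which passed with the replicate block at -2.49 (edgeR adjusted p = 0.00972). From d0 to d5FS it was -1.40 ± 0.64 (edgeR adjusted p = 0.144), and -1.23 with the block (edgeR adjusted p = 0.0188). Both unblocked differences turned on the d0 replicates. Without replicate 1 of d0 they were -1.44 and -0.23 (edgeR adjusted p = 0.176 and 0.80), and without replicate 2 of d0 they were -3.24 and -2.02 and passed (edgeR adjusted p = 0.0316 and 0.0435). Leaving out a d3F replicate gave -3.29 or -2.15 from d0 to d3F without a call.

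Id3 (chr4:136143497-136145755, plus strand) had the highest mean CPM of the 10 genes in both d3F and d5FS. It was at 81.6 and 56.4 CPM in d0, 71.2 and 131 CPM in d3F, and 137 and 134 CPM in d5FS. The d3F range overlapped d0, and d5FS lay above both in CPM. With the TMM scaling used in the test, replicate 2 of d3F was at 137.1 and the d5FS replicates at 127.7 and 134.5, so that d5FS was above d0 but not above d3F. No difference was called. On the log2 scale d3F differed from d0 by 0.50 ± 0.37 (edgeR adjusted p = 0.517) and d5FS from d0 by 0.87 ± 0.37 (edgeR adjusted p = 0.123). Without replicate 1 of d3F the former was 0.94, and without replicate 2 it was -0.11.

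Levels of different genes were compared within a library as TPM, which is divided by transcript length. Such values were used only within libraries because genes without a protein-coding transcript took between 54.3% and 76.9% of all TPM, against 11.7% to 16.6% of the counts. That TPM share was 54.3% and 71.5% in the d0 replicates, 54.8% and 68.1% in d3F and 71.1% and 76.9% in d5FS, higher in replicate 2 of each. In d0 the Id genes led, with 69.5 and 26.2 TPM for Id3, 66.0 and 30.3 TPM for Id1 and 33.4 and 4.42 TPM for Id2. Id1 and Id3 changed places between the d0 replicates. In the 4 later libraries Id3 came first, an order that was not tested. The ligands were far below, at 6.65 and 2.29 TPM for Bmp2 in d5FS, the highest mean of a ligand in that population, and at most 1.09 TPM for any of the 3 in d0.

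The make-up of each group within a library was computed after the values had been seen, and is given without a test. Bmp2 made up 4.64% and 7.41% of the summed TPM of the 3 ligands in d0. Its share was 27.0% and 37.2% in d3F and 63.3% and 71.8% in d5FS. Bmp4 went the other way, from 56.2% and 76.8% in d0 to 20.8% and 17.2% in d5FS. Both shares were ordered by population without overlap, so that among these 3 Bmp4 led in both d0 libraries and Bmp2 in both d5FS libraries. Other BMP ligands are not part of these sums, and in replicate 1 of d0 Bmp8b, at 1.43 TPM, and Bmp8a, at 1.32 TPM, were above Bmp4, at 1.09 TPM.

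Among the antagonists, Fst took 92.3% and 72.4% of the summed TPM in d0. In d3F it took 53.5% and 47.6%, and in d5FS 19.95% and 32.9%. Chrd, Nog and Fst together were 2.82 and 2.14 times the summed ligands in d3F, and 0.415 and 0.505 times in d5FS. In d0 this ratio was 3.88 and 0.704, so that the d0 replicates fell on either side of 1. With Chrd and Nog alone it was 1.31 and 1.12 in d3F, with 0.299 and 0.194 before in d0 and 0.332 and 0.339 after in d5FS. The d3F libraries were thus the ones in which Chrd and Nog transcripts outnumbered those of the 3 ligands. Cer1, another secreted antagonist of BMP, is not part of these sums. Alone it was at 22.6 and 16.6 TPM in d3F and at 87.9 and 92.2 TPM in d5FS. The summed ligands were at 11.2 and 5.43 TPM in d3F and 10.5 and 3.19 TPM in d5FS. The low d5FS ratios therefore hold for Chrd, Nog and Fst and not for all BMP antagonists. A ratio of transcripts does not give the ratio of secreted proteins.

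Id3 made up 41.2% and 43.0% of the summed TPM of Id1, Id2 and Id3 in d0. In d3F it made up 77.6% and 72.1%, and in d5FS 59.9% and 61.3%. The d0 libraries gave 39.1% and 49.8% for Id1, the d3F libraries 16.0% and 26.6%, and the d5FS libraries 34.3% and 35.8%. The 3 populations overlapped in neither share.

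**Figure D3:**
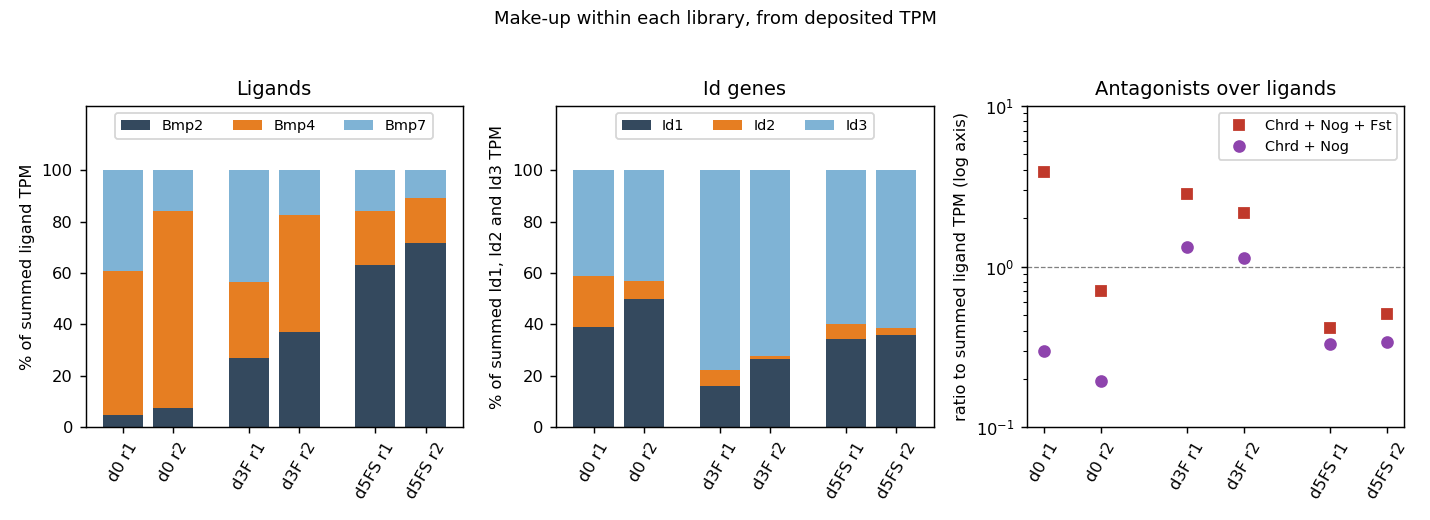
Shares of the summed ligand TPM (left) and of the summed Id1, Id2 and Id3 TPM (middle), and the ratio of antagonist to ligand TPM on a log axis (right), in each library. The antagonists in the ratio are Chrd, Nog and Fst, or Chrd and Nog alone, without Cer1. The share of Bmp2 is 63.3% and 71.8% in d5FS, the share of Id3 is largest in d3F, and the ratio with Chrd and Nog alone is above the dashed line at 1 only in the d3F libraries.

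Beyond the 10 genes, 54 other genes of the pathway were listed, 1 of them (Hjv) found in the tables under its older symbol Hfe2, and 41 passed the filter on low counts. At the first step 7 of these were called, 6 higher and 1 lower. At the step to d5FS 2 were called, both higher, and between d0 and d5FS 17 were, 13 higher and 4 lower. Over all genes tested 4.7%, 1.54% and 22.8% were called, and the counts in the groups below from d0 to d5FS are to be read against the last of these. Their median log2 fold change was 0.59, 0.26 and 0.90. It did not change when Gdf2, which had 0 counts in d0, was set to its lower bound in the comparisons with d0. That bound also lies above the median, so the median could not have changed.

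Of 10 other BMP-type ligands, 6 were tested and 4 called from d0 to d5FS. Bmp5 had 1 and 2 counts in d0, and was at 1.89 and 5.75 CPM in d3F and 1.09 and 1.08 CPM in d5FS. Pooled over replicates, its d3F level was 55.1 times that of d0 (95% exact interval 18.5 to 270.2, counting error only), and it was called as higher at that step (edgeR adjusted p = 0.0167). Gdf2, which encodes BMP9, made by liver and bound by endothelial receptors, had 0 counts in both d0 libraries and 21 and 48 in d5FS. This is at least 14.8-fold higher in d5FS, against a floor of 3 counts per d0 library, and was called (edgeR adjusted p = 0.0139). Bmp8a and Bmp8b, known from germ cell formation, fell, with log2 fold changes of -2.94 ± 0.87 and -1.82 ± 0.51 from d0 to d5FS (edgeR adjusted p = 0.0429 and 0.0351). They are close paralogs, so that reads may be split between them.

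Among 15 other secreted antagonists and modulators, 9 were tested, and 5 were called from d0 to d5FS, all higher. Cer1, a secreted antagonist of Nodal, BMP and Wnt of the anterior endoderm, was at 1.45 and 0.539 CPM in d0, 56.0 and 60.9 CPM in d3F and 316 and 479 CPM in d5FS. It rose at both steps (log2 fold change 5.81 ± 0.50 and 2.75 ± 0.42, edgeR adjusted p = 0.00269 and 0.0242), and in d5FS it was above each of Chrd, Nog and Fst in TPM, at 87.9 and 92.2 TPM. Bmper, a chordin-like binder of BMPs, went from 0.317 and 0.494 CPM in d0 to 3.73 and 21.5 CPM in d3F and 18.0 and 11.6 CPM in d5FS. The proteases Bmp1 and Tll1, which cleave chordin, and Twsg1, which binds both chordin and BMPs, were higher in d5FS than in d0 by 1.51 ± 0.39, 3.84 ± 0.45 and 1.89 ± 0.31 (log2, edgeR adjusted p = 0.0276, 0.00249 and 0.0056). Fstl1, a follistatin-like secreted protein, was at 26.5 and 20.2 TPM in d3F and was not called in any of the 3 comparisons.

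All 12 listed receptors and co-receptors were tested, and 5 were called from d0 to d5FS. The type II receptor Bmpr2 and the type I receptor Acvr1 were 4.18- and 3.72-fold higher in d5FS (edgeR adjusted p = 0.0431 and 0.0255). Rgma, a membrane-bound co-receptor, rose from 0.679 and 1.12 CPM in d0 to 17.7 and 33.3 CPM in d5FS, and was called at the d3F step as well. Eng, a co-receptor of endothelial cells that is also present on ESCs, fell from 22.3 and 11.3 CPM in d0 to 3.91 and 2.03 CPM in d3F and 2.19 and 0.911 CPM in d5FS. Hfe2, a relative of Rgma, fell as well (log2 fold change -3.68 ± 0.89 from d0 to d5FS, edgeR adjusted p = 0.022), from 28 and 122 counts to 4 and 6.

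Of 7 Smads and ubiquitin ligases, Smad1 was the one called. Smad1, which carries the BMP signal to the nucleus, was at 19.5 and 16.3 CPM in d0, 44.2 and 82.1 CPM in d3F and 85.7 and 96.1 CPM in d5FS. It rose 3.37-fold to d3F and 4.71-fold to d5FS (log2 fold change 1.75 ± 0.39 and 2.24 ± 0.39, edgeR adjusted p = 0.042 and 0.00759). Of 10 other target genes 7 were tested and 2 called from d0 to d5FS. Msx2, a homeobox gene, was at 2.13 and 1.80 CPM in d0 and 13.5 and 14.2 CPM in d5FS (2.71 ± 0.62, edgeR adjusted p = 0.0183). Gata3, a zinc finger gene, was at most 1.63 CPM in d0 and d3F and at 9.84 and 16.1 CPM in d5FS, and rose from d3F to d5FS (4.29 ± 0.62, edgeR adjusted p = 0.021).

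Of these 26 calls, 9 held when any 1 library was left out, those of Cer1 from d0 to d3F and of Cer1, Bmper, Eng, Gata3, Rgma, Smad1, Tll1 and Twsg1 from d0 to d5FS. The other 6 calls at the first step (Bmp5, Bmper, Eng, Rgma, Smad1 and Tll1) were all lost without replicate 2 of d3F, with edgeR adjusted p-values over the leave-outs of up to 0.31 for Smad1, 0.247 for Eng, 0.125 for Rgma, 0.115 for Bmp5, 0.102 for Tll1 and 0.0845 for Bmper. Bmper and Smad1 held only without replicate 1 of d3F. Bmp5 and Tll1 were also lost without replicate 2 of d0, Rgma without replicate 1 of d0, and Eng without replicate 1 of d0 or of d3F. The calls of Cer1 and Gata3 from d3F to d5FS were lost without any 1 of the 4 libraries compared (edgeR adjusted p up to 0.228 and 0.184). Between d0 and d5FS, that of Gdf2 was lost without replicate 2 of d5FS (edgeR adjusted p = 0.0583). Acvr1, Hfe2 and Msx2 lost theirs without replicate 2 of d0 or either replicate of d5FS (up to 0.0948, 0.136 and 0.0679), and Bmp1 and Bmp5 without any 1 of the 4 libraries compared (up to 0.128 and 0.086). Bmpr2 lost its call without replicate 2 of d0, either replicate of d3F or replicate 1 of d5FS (up to 0.281). Bmp8a and Bmp8b kept theirs only with all libraries or without replicate 2 of d0 (up to 0.265 and 0.149). The replicate block kept all 26 and added Twsg1, Gdf2 and Gata2 from d0 to d3F, Rgma from d3F to d5FS, and Acvr2a, Bambi, Nbl1 and Smad5 from d0 to d5FS.

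**Figure D4:**
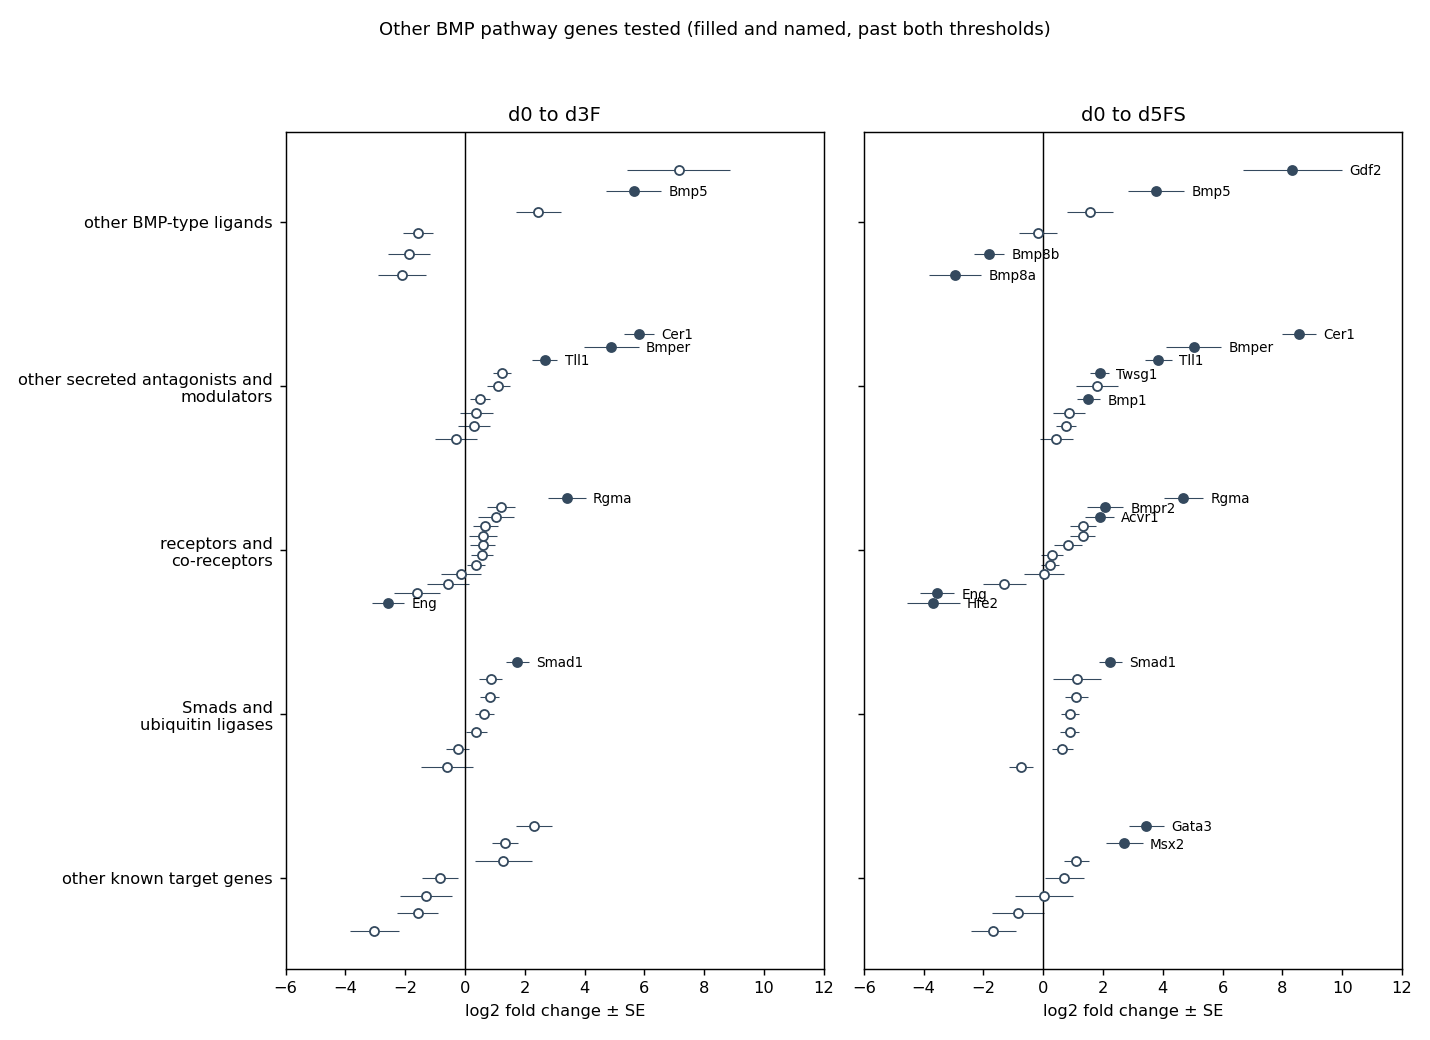
Fitted log2 fold change with its standard error for the 41 other BMP pathway genes tested, by group, from d0 to d3F (left) and from d0 to d5FS (right), with filled, named points for genes past both thresholds. On the right 17 points are filled, 13 to the right of 0 and 4 to the left, and Cer1 stands at 8.56, while the position of Gdf2 depends on the prior count because it had 0 counts in d0.

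The ESCs were thawed on irradiated feeder cells, of which the cultures were depleted before passages on gelatine and differentiation, and d3F and d5FS cells were sorted as reporter positive. Fibroblast markers are given as well. The summed level of 6 fibroblast markers was between 10.9 and 12.9 CPM in d0, 34.8 and 74.0 CPM in d3F and 194 and 248 CPM in d5FS, and was thus lowest in the ESCs. The blood and endothelium list bears on Gdf2 and Eng. Its sum was between 17.7 and 25.9 CPM in d0, 6.63 and 21.5 CPM in d3F and 19.9 and 31.6 CPM in d5FS. Hba-x was at 0 in all 6 libraries, and Hbb-y was at 0 in those of d3F and d5FS. Both are haemoglobin genes and do not report on endothelium. The part of such cells in the levels above was not tested.

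The genes most alike in pattern were sought among 12909 genes with a mean of at least 1 CPM, by Pearson r of log2 CPM over the 6 libraries. The closest to Smad6 were Smad4, the common partner of the receptor Smads (r = 0.996), Acyp1 and Stard3. Chrd was closest to Ifih1 (r = 0.994), Ift122 and Mixl1, a homeobox gene of the primitive streak (r = 0.991). Fst was closest to Cachd1 (r = 0.988), Wnt3, a ligand of the early streak (r = 0.982), and Shc1. Id1 was closest to Gadd45g (r = 0.992) and Id2 to Nr4a1 (r = 0.987). The first genes for the others were Samd3 for Bmp2, Zfp811 for Bmp4, Gm7120 for Bmp7, Ripk2 for Nog and Esd for Id3, with r between 0.988 and 0.996. Each of the 10 genes had 3 such genes with r of at least 0.969, so coefficients this close to 1 were found for every one of these patterns, and they are a description only.

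Within the 10 genes the highest of these coefficients were 0.93 for Chrd and Nog and 0.91 for Bmp2 and Smad6, and the lowest was -0.80 for Smad6 and Id2. Id1 and Id3 had r = 0.41, and Id1 and Chrd had r = -0.76. All of these rest on the same 6 libraries and their depth.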

How the data were processed

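RNA-seq of d0, d3F and d5FS cells was used, with 2 replicates each. According to the methods of the study, replicates were independent, RNA was depleted of ribosomal RNA, and libraries were made with a kit that does not mark strand. The authors aligned paired reads to mm10 with STAR and deposited RSEM gene tables (versions are not given in the sources used here). The expected counts that the authors deposited estimate the fragments of each gene, without normalization. TPM values, also deposited, correct for effective length and add up to 1000000 in every library. FPKM values were not used.

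Expected counts were rounded to whole numbers, and their totals gave CPM. Genes were kept by filterByExpr and normalized by TMM. With edgeR 4.0.16 in R 4.3.3, all 6 samples entered 1 quasi-likelihood fit with 3 population means (3 residual degrees of freedom) and p-values were adjusted over all genes by Benjamini-Hochberg. The standard error is the absolute log2 fold change over the square root of F. The procedure was tested on simulated data. These had no replicate effect, so they do not bear on the shared deviations of same-numbered samples given below.

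The labels give each population the same 2 replicate numbers. Deviations from the population means correlated between same-numbered samples (r = 0.314 between d0 and d3F, 0.324 between d0 and d5FS, 0.278 between d3F and d5FS), and a fit with the number as a block was made beside the main one. The labels call all 6 samples total RNA, whereas the library list of the study names 1 library of each population mRNA and the other total RNA, without replicate numbers. Whether the number marks this difference in preparation is not known, and its part in the replicate differences, the block and the TPM shares was not tested. Replicates differed by more than sampling noise, with 85 to 190.4 chi-square per degree of freedom.

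The 10 genes and the pathway lists were chosen with earlier results of these data known. The genes named are all 10, and of the other lists those called in any comparison, up to 5 per list by size of change, and those whose population mean reached 20 TPM. For likeness of pattern the 3 closest genes were taken (prior count 2 for log2 CPM). Gene positions are from GENCODE M21 on GRCm38, and promoters from RefSeq. Alternatives were the RLE size factors and both DESeq2 1.42.0 tests (Wald with the same thresholds, and a test against a threshold of 1 on the log2 scale), no filter, at least 10 counts in every sample, the block, a fit of the 2 populations compared, and leaving out each library.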

Additional observations from a re-analysis of the deposited data

How the results depend on the processing

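Over 13 refits of each difference of the 10 genes, 339 of 390 kept their direction and their side of the thresholds. The calls of Bmp2 and Chrd from d0 held in all. Of the 10 genes, the DESeq2 Wald test called 6 at the first step and 2 from d3F to d5FS, and no filter on low counts gave 8, 4 and 7 in the 3 comparisons. The replicate block gave 6 at the first step and 2 from d3F to d5FS, and changed no call of the 10 beyond Bmp7, Id2, Smad6 and Fst. A fit of only the populations compared gave 2 from d3F to d5FS. Leaving out 1 library gave 2 to 4, 0 to 2 and 2 to 6. For the other pathway genes, no filter gave 14 at the first step and 4 from d3F to d5FS, at least 10 counts in every sample 4 from d0 to d3F, the DESeq2 Wald test 4 from d3F to d5FS, and the thresholded DESeq2 test (against 1 on the log2 scale) 8 from d0 to d5FS. Leaving out 1 library gave 1 to 8, 0 to 2 and 9 to 16. Each leave-out with 0 calls from d3F to d5FS by edgeR left 1 sample in a compared population. Such a 0 does not show that these genes did not differ. The cause of these shifts was not tested. In a leave-out the number of samples and the library that is missing change together.

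Over all genes, 683, 224 and 3313 were called in the 3 comparisons. From d0 to d3F the DESeq2 Wald test called 1458, its thresholded test called 377, no filter 1933, at least 10 counts 357, the replicate block 1320 and the fit of 2 populations 430. From d3F to d5FS the Wald test called 1064, no filter 1423, at least 10 counts 144, the block 918 and the fit of 2 populations 529. From d0 to d5FS the thresholded DESeq2 test called 996. Leaving out 1 library gave 97 to 977, 0 to 496 and 1047 to 3037. The 0 came without replicate 1 of d3F, where 1206 genes had an unadjusted p under 0.05.

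On the log2 scale, signs turned in 10 refits, all of differences that were not called. Without replicate 2 of d3F, Id3 was at -0.11 from d0 to d3F. Without replicate 1 of d3F, Bmp7, Smad6 and Id3 were at 0.04, -0.23 and -0.08 from d3F to d5FS. From d0 to d5FS, Bmp4 was at -0.23 without replicate 1 of d5FS and Fst at 0.02 without replicate 1 of d0, while Id1 was at -0.01 with RLE size factors and both DESeq2 tests and at -0.02 without replicate 2 of d5FS. Over all 13 refits the ranges were -0.11 to 0.94 for Id3 at the first step. They were -2.03 to 0.04 for Bmp7, -0.23 to 1.09 for Smad6 and -0.08 to 0.99 for Id3 at the second, and -0.23 to 1.15 for Bmp4, -2.52 to 0.02 for Fst and -0.02 to 0.07 for Id1 over the whole course. With TMM scaling of CPM, 26 of 30 population means moved by less than the SD of their replicates, the other 4 being Bmp2 in d3F and Smad6, Id1 and Id3 in d5FS, and the order of d3F and d5FS for Id3 no longer held between single libraries. TPM rescaled by TMM factors moved none of the 30 beyond the SD. A leave-out assumes that the remaining sample of a population varies like the other populations.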
